A study of Mus musculus with 4 samples.

Results

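Metalloproteinases were followed in microglia of the demyelinating mouse brain through 8 genes: the matrix metalloproteinases Mmp12, Mmp2, Mmp9 and Mmp14, the membrane proteases Adam8, Adam10 and Adam17, and the inhibitor Timp2. They were taken by symbol from the 32285 genes of the count tables. Mmp12 was chosen by its level in these same cells, which earlier work on the data had found lower in PRMT1-deficient cells, so its genotype difference is described without a test and the other 7 genes were set beside it.

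The libraries came from 4 mice on a C57BL/6 background. Floxed alleles of Prmt1, a protein arginine methyltransferase gene, were carried by 2 PRMT1FL mice, labelled wild type in the sample records and called controls below. The same alleles together with Cx3cr1-CreERT, a tamoxifen-inducible recombinase under the Cx3cr1 promoter, were carried by 2 PRMT1Cx3cr1-KO mice, called knockout mice; that promoter is active in microglia and in other mononuclear phagocytes. All received tamoxifen at 5 to 6 wk of age and later a diet with 0.2% cuprizone (CPZ), a copper chelator that strips myelin, for 5 wk; the labels put that age at the diet instead. Brain cells sorted for CD45 and CD11b gave 1 droplet library per mouse (10x Genomics 3′ chemistry), in which unique molecular identifiers (UMIs) count captured RNA molecules.

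Matrix metalloproteinases are zinc enzymes, made as inactive precursors, that cut extracellular matrix and surface proteins. MMP12, or macrophage metalloelastase, is released by activated macrophages. ADAM10 and ADAM17 shed the outer parts of receptors and cytokines, among them TNF and TREM2, and tissue inhibitors of metalloproteinases (TIMPs) block the active sites of many of these enzymes.

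The libraries held 76943248 to 99559644 UMIs, 8170 to 11427 cells per mouse were kept, and any pair of libraries shared 31 to 46 barcodes. Clustering left out the 8 genes, the wider protease lists and 749 genes that differed between genotypes, and it placed 7804 to 10957 cells per mouse in microglial clusters. Levels are given in CPM, the UMIs of a gene summed over those cells and scaled to the same UMI total in every mouse. In such sums fewer expressing cells and less RNA per cell cannot be told apart. Prmt1 measured 90.7 and 83.8 CPM in controls and 70.2 and 70.5 CPM in knockout mice (log2 fold change -0.39, SE 0.07, edgeR adjusted p = 0.0734), and these counts do not separate intact from recombined transcripts. Erythroid transcripts, 5 of 5 markers detected, summed to 242 and 94.2 CPM in control microglia and to 0.0613 and 0.0212 CPM in knockout microglia; their part in the results was not tested.

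RefSeq gives Mmp12 a pair of transcription starts. The windows from 250 bases before to 50 bases after each start (GRCm38.p6, plus strand) are shown because the results turn on this gene. Capitals mark TGANTCA, the core bound by AP-1 factors, and TATAAA, the TATA box; both strands were searched, also for TGACNNNGC, the core of the antioxidant response element.
Mmp12, chr9:7344147-7344446: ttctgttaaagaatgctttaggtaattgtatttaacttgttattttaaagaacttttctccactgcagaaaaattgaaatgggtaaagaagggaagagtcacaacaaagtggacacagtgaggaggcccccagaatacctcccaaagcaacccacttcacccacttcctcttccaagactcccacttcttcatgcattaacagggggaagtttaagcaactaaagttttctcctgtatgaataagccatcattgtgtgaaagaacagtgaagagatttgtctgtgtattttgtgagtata
Mmp12, chr9:7347124-7347423: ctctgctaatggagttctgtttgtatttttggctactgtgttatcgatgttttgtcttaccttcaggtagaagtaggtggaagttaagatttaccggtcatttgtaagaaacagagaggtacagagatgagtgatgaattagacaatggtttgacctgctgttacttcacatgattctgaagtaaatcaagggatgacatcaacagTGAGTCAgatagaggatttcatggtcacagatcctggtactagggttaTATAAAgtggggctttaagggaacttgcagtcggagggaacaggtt
The second window holds an AP-1 core 44 bases before its start and a TATA box just past the start, and the first holds none of the 3 motifs. Over 32817 windows of all genes, 7.81% hold TGANTCA, 13.6% TATAAA and 12.4% TGACNNNGC. No match was found in the windows of Mmp14, Adam8, Adam10 and Adam17, and Timp2 has TGACNNNGC on the opposite strand. A match describes letters and not a bound site.

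Over all microglia the Mmp12 level overlapped between genotypes. Mmp12 (ENSMUSG00000049723, GRCm38 chromosome 9, 7344381 to 7369499) was at 21.0 and 30.6 CPM in controls, from 1851 and 2231 UMIs, and at 17.6 and 25.5 CPM in knockout mice, from 1435 and 2405 UMIs. The means were 25.8 ± 6.79 CPM (SD, n = 2) and 21.6 ± 5.62 CPM (SD, n = 2), with a fitted log2 fold change of -0.34 (SE 0.21). This value was -0.04 without control mouse 2 and -0.11 without knockout mouse 1, and it was -0.59 and -0.60 without control mouse 1 and knockout mouse 2.

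**Figure D1:**
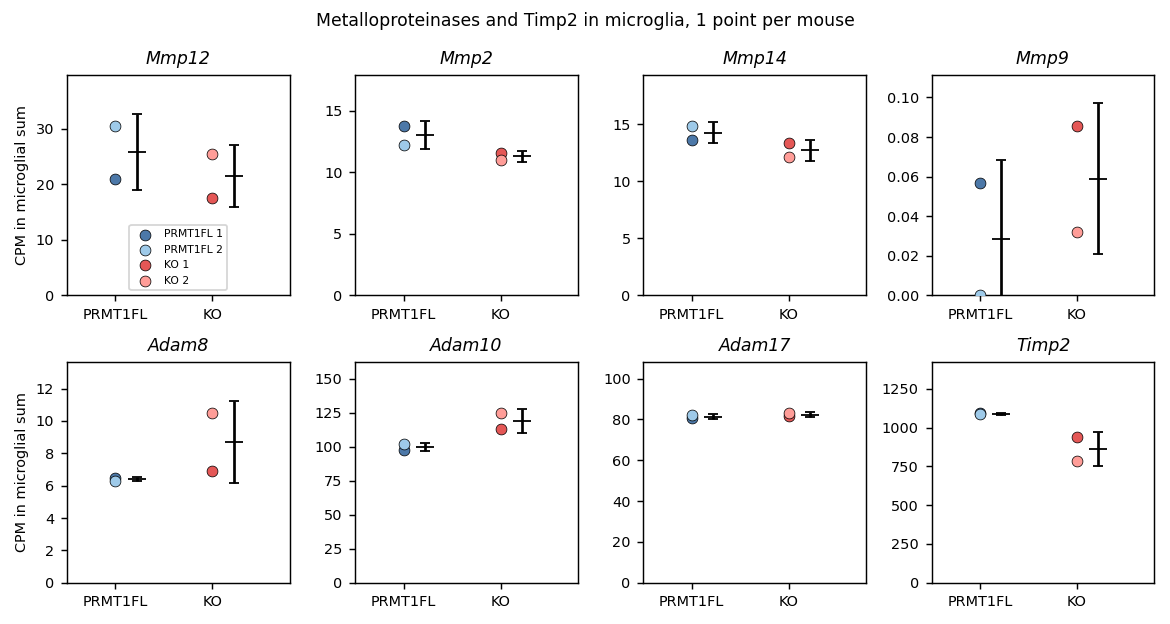
CPM of each of the 8 genes over all microglia, 1 point per mouse, with the mean and SD of each genotype (n = 2; KO stands for PRMT1Cx3cr1-KO). Mmp2, Mmp14 and Timp2 are lower and Adam8 and Adam10 higher in both knockout mice than in both controls, whereas Mmp12, Mmp9 and Adam17 overlap.

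Few cells carried Mmp12, and a small number of them carried most of it. At least 1 UMI was found in 5.18 and 6.92% of control microglia and in 3.16 and 3.54% of knockout microglia. With every cell thinned to 1000 UMIs, which left out 273 to 462 shallower cells per mouse, the shares were 1.57 and 2.46% against 1.11 and 1.27%, again without overlap. Cluster 8, made of other brain cells (Ttr and Ptn are among its leading genes; median 2692 UMIs against 6618 in microglia), had an Mmp12 UMI in 3 of 448 thinned cells. That share of 0.670% has a 95% exact binomial interval of 0.138 to 1.94%, for counting error only. The interval takes in the thinned shares of both knockout mice and of control mouse 1. It pools the mice, and all 3 cells were control cells (0.905 and 0.699%). The 56 and 28 thinned cells from knockout mice held none, so the interval is no measure of background in the knockout libraries.

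The numbers of the richest cells overlapped: 40 and 55 control cells and 36 and 58 knockout cells held 10 or more Mmp12 UMIs. The highest single cell held 74 and 62 UMIs in controls and 65 and 123 in knockout mice. The top 1% of microglia accounted for 60.0 and 54.1% of Mmp12 UMIs in controls and for 80.0 and 83.0% in knockout mice, so the transcript was more concentrated in the latter. For comparison, the top 1% held 28.6 to 30.3% of the Adam8 UMIs and 5.19 to 5.81% of the Timp2 UMIs. Of the 189 cells with 10 or more UMIs, 8.47% were marked as doublets, against 8.23% of all microglia.

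The cells that held Mmp12 differed between genotypes. Cluster 2, MHC class II and CD11c-like (Itgax, Cd74, Postn), supplied 41.5 and 38.1% of the microglial Mmp12 UMIs in controls but 12.5 and 2.99% in knockout mice. Cluster 0, led by Gpnmb, Baiap2l2 and Lgi2, supplied 22.5 and 30.4% against 6.34 and 7.98%. The lead of Gpnmb is slight: of the 7 disease-associated markers, Gpnmb among them, 0 reached a log2 ratio of 1 over the other cells. Cluster 4, homeostatic-like (led by Il7r, Slc40a1 and Txnip), went the other way, from 1.35 and 1.70% to 31.4 and 46.8%.

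**Figure D2:**
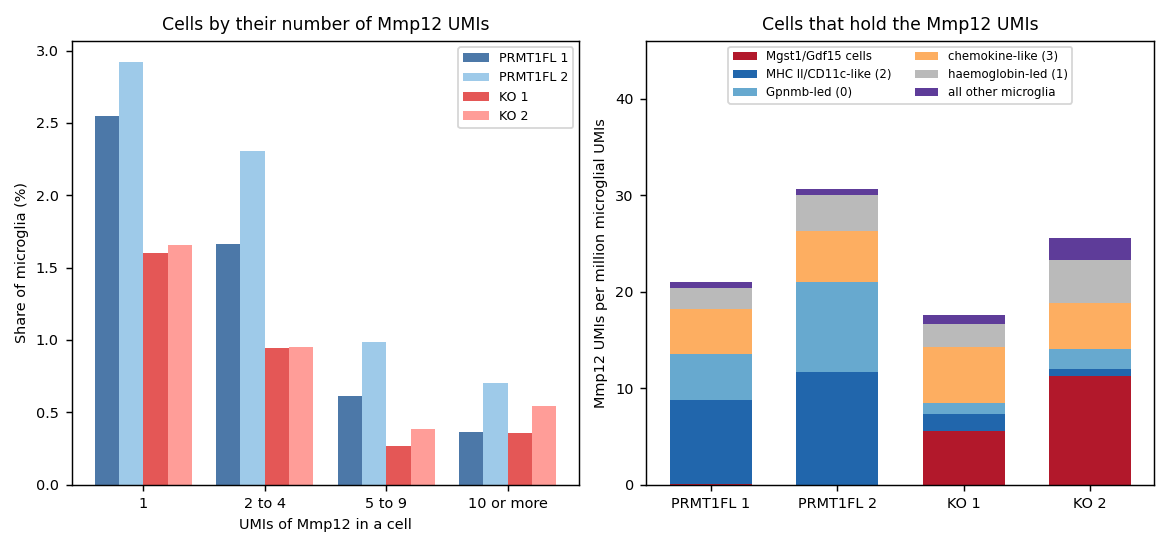
Left, share of microglia (%) by the number of Mmp12 UMIs in a cell, per mouse. Right, Mmp12 level over all microglia (CPM) divided by the cells that hold it. Cluster 2 (MHC class II and CD11c-like) and cluster 0 (labelled Gpnmb-led, though Gpnmb is only slightly raised) supply most of it in controls. Cells led by Mgst1 and Gdf15 supply 5.56 and 11.3 CPM in knockout mice 1 and 2.

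Within cluster 2 Mmp12 measured 40.4 and 53.8 CPM in controls and 13.9 and 9.48 CPM in knockout mice. Both knockout mice were below both controls, the log2 fold change was -2.01 (SE 0.18), and it ranged from -2.41 to -1.78 with any mouse left out. Cluster 0 showed the same order, with 14.0 and 26.8 against 4.68 and 6.47 CPM (-1.89, SE 0.29; -2.30 to -1.36 with any mouse left out). In the chemokine-like cluster 3 (Tnfsf9, Il12b, Dusp2) the difference was smaller, 23.2 and 27.4 against 16.5 and 21.2 CPM (-0.55, SE 0.12). The chemokine-like cluster of the finer clustering was at 30.2 and 37.2 against 15.6 and 15.9 CPM. A finer cluster led by Klf2, Clec4a3 and Neurl3 overlapped, at 8.14 and 15.7 against 9.69 and 5.02 CPM. The summed level of the 5 MHC class II and CD11c markers, all detected, was also lower in knockout microglia, 462 and 184 against 1191 and 1484 CPM, and its part in the Mmp12 difference was not tested.

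The other main clusters overlapped or held few UMIs. Cluster 1, led by the haemoglobin genes Hbb-bs, Hba-a1 and Hba-a2, was at 19.8 and 36.2 against 27.1 and 36.1 CPM. Its haemoglobin lead comes from the controls: erythroid transcripts over knockout microglia summed to 0.0613 and 0.0212 CPM. Even so, 1709 and 2272 of its cells were from knockout mice 1 and 2, so the leading genes do not describe those cells. The proliferating-like cluster 5 (Mki67, Hist1h2ap, Cenpf) was at 4.37 and 2.42 against 5.59 and 1.99 CPM. The interferon-like cluster 7 (Rsad2, Iigp1, Ifit3) was lower in the knockout but held only 14, 5, 3 and 1 UMIs. At the finer clustering the interferon-like cluster (Rsad2, Ifit3, Ifit2) was larger, with 2570 cells. It held 87 and 165 Mmp12 UMIs in controls and 28 and 11 in knockout mice, at 12.3 and 29.1 against 5.45 and 3.34 CPM. In the disease-associated-like cluster 6.0 (Ms4a7, Clec12a, Cd38), with 41, 21, 106 and 594 cells, knockout mouse 2 held 119 Mmp12 UMIs and the other mice 1, 0 and 5.

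In cluster 4 the order was opposite. Mmp12 stood at 4.63 and 7.42 CPM in controls, from 25 and 38 UMIs, and at 87.2 and 141 CPM in knockout mice, from 451 and 1125 UMIs. The log2 fold change was 4.29 (SE 0.28) and lay between 3.87 and 4.66 with any mouse left out. Separation of the mice by genotype is common in these data: it held for 60.7% of all genes tested in cluster 4, 45.5% in cluster 2, 49.5% in cluster 0 and 56.8% in cluster 3.

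**Figure D3:**
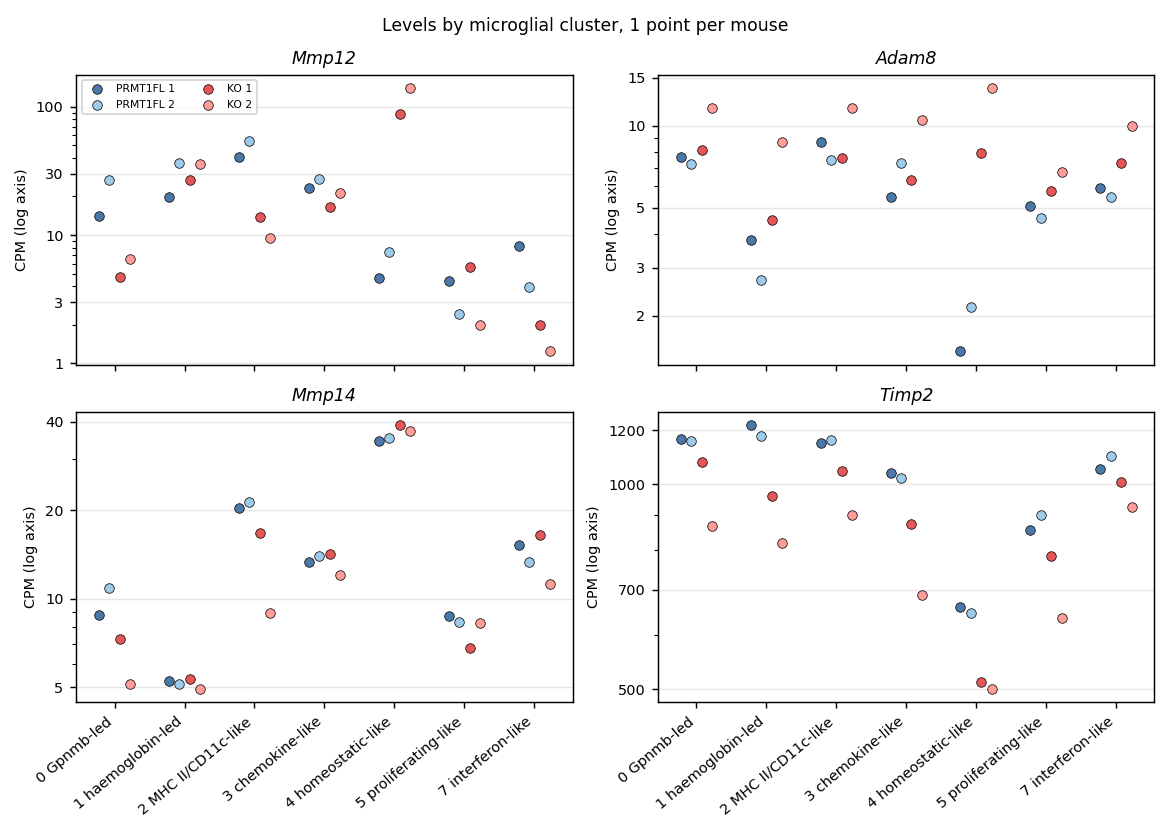
CPM on a log axis of Mmp12, Adam8, Mmp14 and Timp2 in the 7 microglial clusters with at least 50 cells in every mouse, 1 point per mouse. Mmp12 of the knockout mice lies below both controls in clusters 0, 2 and 3 and above them in cluster 4, where Adam8 is also higher and Timp2 lower.

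At the finer clustering, most of that excess fell in 262 cells led by Mgst1, Gdf15 and Pla2g7, 85.9% of them from cluster 4. Next in their leading genes came Ahnak2, Gpnmb, Srxn1, Gclm and Gstm1; Mgst1, Gstm1 and Gclm serve glutathione metabolism, and Gdf15 is a stress-induced cytokine gene. The group is left unnamed because its closest marker list changed with the clustering. It numbered 1 and 5 cells in controls and 78 and 178 cells in knockout mice, or 0.00913 and 0.0641% against 0.767 and 1.66% of microglia. A property of the knockout libraries and of the genotype cannot be told apart here. Another random seed gave a like group of 193 cells, 2 of them from controls (1 each), 62 from knockout mouse 1 and 129 from knockout mouse 2.

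These cells held 454 and 1065 Mmp12 UMIs in knockout mice 1 and 2, a level of 930 and 748 CPM. That was 31.6 and 44.3% of all Mmp12 UMIs of knockout microglia. Even so, 33 of 78 and 63 of 178 cells had any Mmp12 UMI (42.3 and 35.4%), and the median cell had 0. At the same clustering Mmp12 of the controls was concentrated in 3020 MHC class II and CD11c-like cells led by Postn, Itgax and Cd74, which held 49.1 and 47.4% of the controls' Mmp12 UMIs, at 90.6 and 129 CPM against 29.2 and 60.0 CPM in knockout mice.

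The sums were also taken without the Mgst1- and Gdf15-led cells, an alternative added after seeing the data. These cells were singled out for their Mmp12 level and held 0.162 and 0% of the controls' Mmp12 UMIs, so leaving them out could lower the knockout level only, and the values are a description of the remaining cells. Mmp12 was then at 21.0 and 30.7 CPM in controls and at 12.1 and 14.5 CPM in knockout mice, a log2 fold change of -1.03 (SE 0.18). The rest of cluster 4 was left at 4.07 and 7.45 against 7.79 and 11.0 CPM (0.74, SE 0.31). With the shares of the clusters held equal in every mouse, the log2 ratio of Mmp12 was 0.37 over the 7 main clusters. It was -0.55 over the 12 finer clusters with at least 50 cells in every mouse. These leave out the 262 cells and those of other small clusters. A cluster led by Gdf15, Tnf and Gbp5, with 13 and 10 control against 275 and 219 knockout cells, was left out. So was one led by Ms4a7, Clec12a and Cd38, with 35 and 24 against 105 and 656. They held 0 and 4 against 62 and 34 Mmp12 UMIs, and 0 and 1 against 4 and 83. The Mmp12 left out was thus mostly that of knockout mice, and -0.55 describes the remaining cells. Pooling the UMIs of the same cells gave -0.26 over the 7 clusters and a value below -0.55 over the 12. Pooling counts each cell by its UMIs, whereas the equal shares are shares of cells. Cluster 4, with a median of 3075 UMIs per cell against 6618 in microglia, weighs less when UMIs are pooled. The ratio was higher with equal shares at both clusterings, but the effect of the shares alone was not tested.

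Cells with and without an Mmp12 UMI were compared within each mouse after thinning, with 10 CPM added before log2. Lgals3 is named for its rank by correlation with Mmp12 in these same data, given below. The other genes named in this paragraph were picked after their values were seen. Lgals3, which encodes galectin-3, was higher in cells with Mmp12 in all 4 mice, by 2.53 and 2.70 in controls and 3.13 and 3.38 in knockout mice, and the homeostatic microglial gene P2ry12 was lower, at -1.42, -2.27, -1.15 and -1.27. Cd74, the MHC class II invariant chain, was higher by 1.89 and 1.67 in controls, against 1.05 and 0.11 in knockout mice. Gpnmb, a lysosomal stress glycoprotein, went from 0.02 and -0.93 in controls to 2.75 and 3.03 in knockout mice, and Gdf15 from 1.10 and 1.01 to 2.56 and 2.90. Itgax, which encodes CD11c and leads cluster 2 together with Cd74, was higher in cells with Mmp12 in all 4 mice, by 1.60 and 1.54 in controls and 1.54 and 2.54 in knockout mice, and so was Plau, by 1.99 and 1.93 and by 1.53 and 1.06.

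Across 28 sums, 7 clusters in each of 4 mice, 5252 genes were ranked by the correlation of their log2 level with that of Mmp12. The highest were Arl8a (Pearson's r = 0.81), Tex264 (0.80), Lgals3 (0.75), Degs1 (0.72), Creg1 and Cbr1 (both 0.71), Smpdl3a (0.70), and Idh1, Tmem159 and Lsp1 (each 0.69), and the lowest were Sap30 (-0.76), Rfc3 (-0.74), Ccdc25 (-0.73), Vars (-0.72) and Actr3 (-0.71). The points share mice and clusters, so r is a description. The same genes were also compared between cells with and cells without an Mmp12 UMI. There Lgals3, Smpdl3a (0.64, 1.11, 1.68 and 1.96) and Arl8a (0.27, 0.04, 0.51 and 0.95) were above 0 in all 4 mice. Each of the other genes with the highest r was below 0 in some mouse. Tex264 was at 0.08 and 0.70 in controls and -0.28 and 0.62 in knockout mice, and Cbr1 at 0.56 and -0.31 against 0.39 and -0.53. Of the 10 highest, 1 was also among the 10 highest in controls alone and 3 in knockout mice alone.

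The gelatinases MMP2 and MMP9 cleave denatured collagen. Mmp2 (ENSMUSG00000031740, chromosome 8, 92827291 to 92853420) was at 13.8 and 12.2 CPM in control microglia and at 11.6 and 11.0 CPM in knockout microglia, without overlap (log2 fold change -0.27, SE 0.10, edgeR adjusted p = 0.193). Its highest cluster was cluster 4, at 21.3 and 19.7 against 22.4 and 20.3 CPM, where the groups overlapped. In the Mgst1- and Gdf15-led cells of the knockout mice it was at 10.2 and 7.02 CPM, from 5 and 10 UMIs.

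Mmp9 (ENSMUSG00000017737, chromosome 2, 164940780 to 164955850) was almost absent from microglia, with 5, 0, 7 and 3 UMIs, too few to test. In controls it came mostly from neutrophil-like cells (S100a8, S100a9, Ngp), which held 127 and 291 of the 151 and 303 Mmp9 UMIs of all control cells, at 979 and 961 CPM, and 62.3% of 69 thinned cells had a UMI (95% exact binomial interval 49.8 to 73.7%), against 0 of 38058 thinned microglia. Over all sorted cells Mmp9 fell from 1.67 and 4.03 to 0.315 and 0.219 CPM (log2 fold change -3.45, SE 0.51, edgeR adjusted p = 0.0255). Neutrophil-like cells numbered 25 and 47 in controls and 0 and 1 in knockout mice, and the 7 neutrophil markers, all detected, summed to 448 and 1463 against 0.690 and 97.4 CPM over all cells. Most of the controls' Mmp9 UMIs thus lay in cells that the knockout libraries almost lacked, and no fit over the remaining cells together was run. Border macrophage-like cells (Mrc1, F13a1, Lyve1) also held Mmp9, at 24.8 and 7.45 CPM in controls and 35.0 and 14.9 CPM in knockout mice, where they had 19 of 26 and 14 of 21 of its UMIs.

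Mmp14 (ENSMUSG00000000957, chromosome 14, 54431612 to 54445364) encodes a membrane-anchored protease that activates pro-MMP2 with the help of TIMP2. It was at 13.6 and 14.9 CPM in controls and at 13.4 and 12.1 CPM in knockout mice (log2 fold change -0.23, SE 0.10, edgeR adjusted p = 0.259). It was lower in both knockout mice in clusters 2 and 0, without passing the test: 20.4 and 21.4 against 16.7 and 8.96 CPM in cluster 2 (-0.68, edgeR adjusted p = 0.178) and 8.80 and 10.9 against 7.30 and 5.15 CPM in cluster 0 (-0.73, edgeR adjusted p = 0.105). In cluster 3, where Mmp12 was lower as well, Mmp14 overlapped, at 13.4 and 14.0 against 14.2 and 12.1 CPM. Mmp14 was higher in cluster 4, at 34.4 and 35.2 against 39.0 and 37.1 CPM, than in clusters 0, 1, 2, 3, 5 and 7. A UMI was found in 1.47 to 1.87% of thinned microglia per mouse and in 4.02% of thinned cells of cluster 8.

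Adam8 (ENSMUSG00000025473, chromosome 7, 139978932 to 139992562), a membrane protease of myeloid cells, was the member called higher in cluster 4, where Mmp12 was also higher. Over all microglia it was at 6.47 and 6.30 CPM in controls and at 6.92 and 10.5 CPM in knockout mice (log2 fold change 0.37, SE 0.18, edgeR adjusted p = 0.304). In cluster 4 it rose from 1.48 and 2.15 CPM, or 8 and 11 UMIs, to 7.93 and 13.8 CPM, or 41 and 110 UMIs (2.64, SE 0.38, edgeR adjusted p = 0.00155). The call held with any mouse left out, at 2.13 to 2.95. It also held in cluster 4 without the Mgst1- and Gdf15-led cells (1.74, SE 0.37, edgeR adjusted p = 0.0115), and those cells carried Adam8 at 38.9 and 50.5 CPM in knockout mice. In the other 6 clusters tested the log2 fold change was 0.13 to 0.93 with no call, and the difference between clusters was not tested. Thinned shares of 0.501 to 0.928% of microglia lie within the interval of cluster 8, which rests on 2 of 448 cells (0.446%, 0.0541 to 1.60%). That interval pools the mice, covers counting error only and is wide, so it cannot settle whether the microglial share exceeds background. Of thinned neutrophil-like cells 26.1% had a UMI.

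The sheddases Adam10 and Adam17 varied less. Adam10 (ENSMUSG00000054693, chromosome 9, 70678997 to 70780229) was at 98.0 and 102 CPM in controls and at 113 and 125 CPM in knockout mice (log2 fold change 0.17, SE 0.07, edgeR adjusted p = 0.220). By CPM both knockout mice were above both controls in each of the 7 clusters, with fitted log2 fold changes of 0.08 to 0.22 and no call. Over all microglia 39.0% of all genes had that order in CPM and 17.0% the opposite one. The share of genes with 1 order in all 7 clusters was not counted. Adam17 (ENSMUSG00000052593, chromosome 12, 21323509 to 21373632) was at 80.5 and 82.2 against 81.4 and 83.2 CPM, so the groups overlapped (-0.06, SE 0.06, edgeR adjusted p = 0.630), with -0.22 to 0.06 over the clusters. In cluster 4 Adam10 was at 147 to 160 CPM and Adam17 at 100 to 105 CPM over the mice. Thinned shares were 9.20 to 11.4% for Adam10 and 7.24 to 8.02% for Adam17, against 6.70 and 3.79% in cluster 8.

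Timp2 (ENSMUSG00000017466, chromosome 11, 118301069 to 118355740) was lower in both knockout mice in all 7 clusters. Over all microglia it was at 1095 and 1086 CPM in controls and at 938 and 782 CPM in knockout mice (log2 fold change -0.42, SE 0.11, edgeR adjusted p = 0.127; DESeq2 -0.41, adjusted p = 0.0132). It fell in cluster 1, from 1222 and 1179 to 961 and 819 CPM (-0.55, SE 0.10, edgeR adjusted p = 0.0141). It fell in cluster 4 as well, from 660 and 648 to 512 and 501 CPM (-0.35, SE 0.09, edgeR adjusted p = 0.0281), a call that was lost when control mouse 1 (edgeR adjusted p = 0.147) or control mouse 2 (0.140) was left out. The other 5 clusters gave -0.51 to -0.19 with no call. Thinned shares of cells with Timp2 were 60.5 and 60.3% in controls and 54.6 and 49.6% in knockout mice, against 12.9% in cluster 8.

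**Figure D4:**
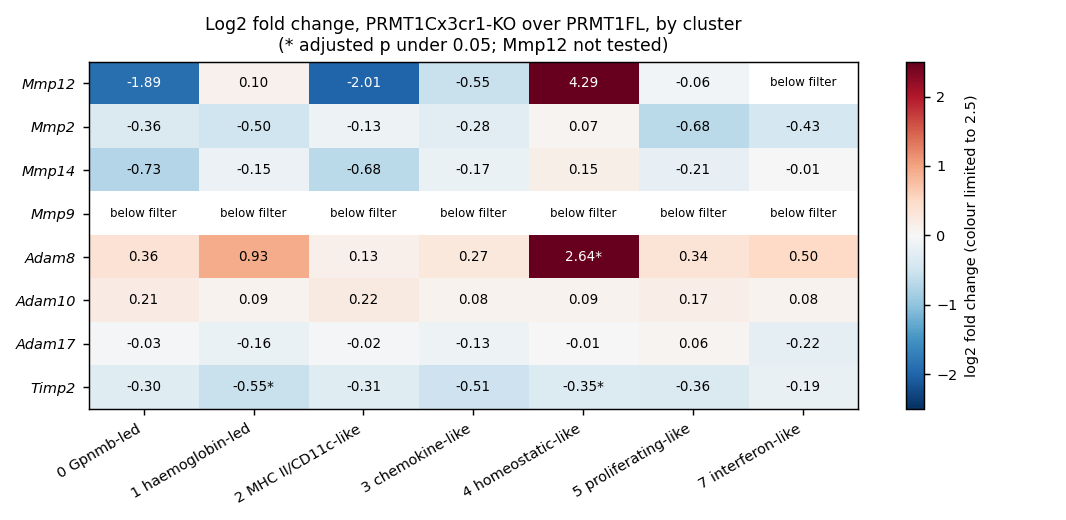
Fitted log2 fold change (PRMT1Cx3cr1-KO over PRMT1FL) of each gene in 7 microglial clusters; an asterisk marks an edgeR adjusted p under 0.05, and Mmp12 was not tested. Mmp12 runs from -2.01 in cluster 2 to 4.29 in cluster 4, and the calls are Adam8 (2.64) and Timp2 (-0.35) in cluster 4 and Timp2 (-0.55) in cluster 1.

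Of the 7 genes besides Mmp12, 6 could be tested over all microglia and edgeR called 0, where 0.811% of 13807 genes were called; 3 had an unadjusted p under 0.05 (Mmp2, Adam10, Timp2), as did 19.9% of all genes, and DESeq2 called 1, where 5.40% of all genes were. Both knockout mice were below both controls for 3 of the 8 genes and above them for 2, against 17.0 and 39.0% of all genes, 56.0% together. Within clusters 3 of 42 tests were called, with 17.3% of all genes called in cluster 4, 3.03% in cluster 1, and 1.37, 0.765, 3.54, 0.142 and 0.752% in clusters 0, 2, 3, 5 and 7. In cluster 4 without the Mgst1- and Gdf15-led cells 13.6% were called. Without knockout mouse 1, 5 of 6 genes were called over all microglia (all but Adam17), where 17.9% of all genes were; without knockout mouse 2 and control mice 1 and 2 none was, where 6.23, 0.0283 and 0.0352% were. With no filter on low counts 2 genes were called (8.51% of all genes), over all cells 1 (5.08%), with a replicate block 0 (2.38%) and without the Mgst1- and Gdf15-led cells 0 (0.550%).

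The wider family was read from 8 lists of 96 genes. Of 51 tested besides Mmp12 edgeR called 0 over all microglia, 19 had an unadjusted p under 0.05 (19.9% of all genes did), and DESeq2 called 11 of 48 (5.40% of all genes). Their median log2 fold change was -0.04, against 0.00 over all genes. The median was -0.24 for 5 secreted and -0.23 for 3 membrane-bound MMPs, including Mmp19 (0.14), Mmp25 (-0.18) and Mmp23 (-1.20, edgeR adjusted p = 0.149). It was 0.01 for 8 ADAM genes, with Adam15 at 0.00, and 0.05 for 5 ADAMTS genes, with Adamts1 at -0.04, Adamts10 at 0.05 and Adamts16 at 0.13. Other inhibitors were scarce: Reck and Timp4 had 135 and 42 UMIs in all, Timp3 had 10 and Timp1 had 7.

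Within clusters some list genes were called. Tspan17, a tetraspanin partner of ADAM10, rose by 0.80 in cluster 1, by 0.81 in cluster 3 and by 2.59 in cluster 4, there from 2.22 and 2.93 to 13.3 and 16.9 CPM (SE 0.27, edgeR adjusted p = 2.7e-04). Tspan33, another such partner, fell in cluster 3 (-0.66) and cluster 4 (-0.93, edgeR adjusted p = 0.00799), and Tspan14 over all microglia was at 0.03. Rhbdf2, whose product brings ADAM17 to the cell surface, rose in cluster 4 (0.85, edgeR adjusted p = 0.0210). Frmd8, which stabilizes that complex, fell in cluster 3 (-0.41, edgeR adjusted p = 0.0330).

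In the plasminogen system, which activates several MMPs, Plau (urokinase) fell in clusters 1, 3 and 7 (-0.44, -0.73 and -1.11). Its receptor Plaur fell in cluster 1 (-0.62) and cluster 3 (-0.54) and rose in cluster 4 (0.78, SE 0.11, edgeR adjusted p = 0.00168), and the difference between clusters was not tested. Bsg, an inducer of MMPs, fell in clusters 1 and 3 (-0.40 and -0.49).

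Of the substrates, Tnf rose in clusters 0, 1, 4 and 7 (0.83, 0.98, 1.18 and 1.03), while its sheddase Adam17 was called in none. Cd44, a hyaluronan receptor, rose in cluster 4 from 4.44 and 4.10 to 13.7 and 21.1 CPM (2.08, edgeR adjusted p = 8.4e-04). The phagocytic receptors Axl (clusters 1 and 3, -0.63 and -0.69), Trem2 (cluster 1, -0.56) and Mertk (cluster 4, -0.42) fell, as did the growth factor receptor Csf1r (clusters 1 and 4, -0.36 and -0.39). Among proteases Adam15 (0.46), Mmp19 (1.27) and Adamts10 (0.64) rose in cluster 4. Mmp19 was low there, at 2.04 and 1.17 CPM in controls and 3.29 and 4.27 CPM in knockout mice (edgeR adjusted p = 0.0493). These cluster 4 values include the Mgst1- and Gdf15-led cells. In all, 10 list genes rose and 4 fell in cluster 4 of 40 tested, against 9.37 and 7.91% of all genes. In cluster 1 the numbers were 2 and 7 of 37, against 1.59 and 1.44%, and in cluster 3 they were 1 and 6 of 43, against 1.97 and 1.57%.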

How the data were processed

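Per the labels and the submitters' processing notes, the authors used Cell Ranger 3.1.0 on mm10, as well as Seurat 3.2.0 and Scanpy 1.5.2. The deposited values are raw UMI counts per gene and barcode. Barcodes with 200 to 6000 detected genes and no more than 10% mitochondrial UMIs were kept and clustered with scanpy 1.11.5 and leidenalg 0.10.2 (2000 variable genes, 20 principal components, resolution 0.4; 0.8 for the finer clustering). A cluster name ending in -like rests on at least 3 markers of 1 list. Doublets were scored by simulation, and because the automatic threshold marked 0 to 2 cells, the highest scores, 6.54 to 9.15% of cells, were marked; they stayed in the main sums.

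UMIs were summed per mouse, the replicate (72826877 to 94157367 microglial UMIs), and fitted with edgeR 4.0.16: TMM factors, filterByExpr, quasi-likelihood test, Benjamini-Hochberg adjustment over all genes; SE is the fold change over the root of F. DESeq2 1.42.0 was an alternative. For 2 against 2 mice the smallest 2-sided exact permutation p is 0.333. The fit was tested on simulated sums. Coordinates are from GENCODE vM21 on GRCm38, the assembly of mm10.

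The members and lists were chosen with earlier results of these data known. Named were the 8 genes, in each list the genes called at an adjusted p of 0.05 and the 3 highest in CPM of those not called, the 10 genes most and 5 least like Mmp12, the 3 leading genes of each cluster, and Prmt1; some genes that this rule picks are not reported here. Alternatives were other size factors, DESeq2, no count filter, all cells, a 5% mitochondrial limit, no marked doublets, each mouse left out, a replicate block, a finer clustering and another seed.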

Additional observations from a re-analysis of the deposited data

Results flagged for a closer look

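Genotype differences of 3 genes took opposite directions in different microglial clusters, with both PRMT1Cx3cr1-KO mice above both PRMT1FL mice in the first and below both in the second. Only clusters with at least 100 UMIs of the gene were read, and the difference between clusters was not tested. How many of all genes meet this rule was not counted, so the number 3 is no result about these genes. Separation of the mice by genotype held for 60.7, 49.5, 45.5 and 56.8% of all genes tested in clusters 4, 0, 2 and 3. The share was not taken in clusters 5 and 7. For Mmp12 the log2 ratio of the mean CPM was 4.24 in the homeostatic-like cluster 4, and 0.70 there without the Mgst1- and Gdf15-led cells. In both homeostatic-like clusters of the finer clustering Mmp12 overlapped between genotypes. Its ratio was -1.87 in the Gpnmb-led cluster 0, -2.01 in the MHC class II and CD11c-like cluster 2 and -0.42 in the chemokine-like cluster 3. At the finer clustering the ratio of Mmp12 was -1.10 in the chemokine-like and -2.23 in the interferon-like cluster. It was 1.08 in a cluster led by Hcar2, Saa3 and Fn1, with both knockout mice above both controls. For Mmp14 the ratio was 0.13 in cluster 4 and -0.66, -0.71 and -0.18 in clusters 0, 2 and 5. For Adam17 it was 0.11 in the proliferating-like cluster 5 and -0.2 in the interferon-like cluster 7. The values of Mmp14 and Adam17 were small and edgeR called none of them.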

How the results depend on the processing

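With 2 mice per genotype, calls moved with the mice left out, the tool and the filter. The analyses without the Mgst1- and Gdf15-led cells, and the mice left out within clusters, were added after seeing the data. The number of members called in the microglial sums was 0, and it was 1 with DESeq2 (Timp2), 2 without a filter on low counts (Timp2, Adam8), 1 over all cells (Mmp9) and 0 to 5 with each mouse left out, the 5 without PRMT1Cx3cr1-KO mouse 1. For the wider lists it was 0, and 11 with DESeq2, 16 without a filter, 7 over all cells and 0 to 20 with each mouse left out (20 without PRMT1Cx3cr1-KO mouse 1, 7 without mouse 2). Deviations of same-numbered mice correlated at -0.01 over the tested genes. With 2 mice per genotype this value cannot settle whether same-numbered mice were handled together. The replicate block gave 2 calls in the lists and none among the members, and Mmp12 stayed at -0.34. With it 328 genes were called in place of 112. Within clusters, 3 calls became 2 to 15 with each mouse left out, 15 without PRMT1Cx3cr1-KO mouse 1. Over all genes 112 calls became 717 with DESeq2, 1705 without a filter, 749 over all cells, 4 and 5 without PRMT1FL mouse 1 and 2, and 2533 and 879 without PRMT1Cx3cr1-KO mouse 1 and 2; without the Mgst1- and Gdf15-led cells it was 76.

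Prmt1 was -0.38 with DESeq2 and without a filter, -0.35 over all cells, -0.39 with the replicate block (each past the threshold) and -0.44 to -0.33 with each mouse left out. Mmp12 ranged from -0.60 to -0.04 with each mouse left out and was -1.03 without the Mgst1- and Gdf15-led cells. Its highest CPM over microglial clusters was 69.3. It was 770 with the resolution raised and 953 with another seed, because the small group then stands alone. The makeup-standardized ratio of Mmp12 turned from 0.37 to -0.55 at the finer clustering. That value also leaves out several small clusters, among them the almost wholly knockout Mgst1- and Gdf15-led cells. The plain ratio of pooled UMIs over the same cells fell as well, from -0.26 to below the -0.55 reached with equal shares. The cause of the change in sign was not tested. Of the 10 genes most like Mmp12, 1 was kept in PRMT1FL and 3 in PRMT1Cx3cr1-KO mice alone. Signs turned for small or low values. Over all cells these were Adamts1 0.01 and Reck -0.08. With each mouse left out they were Mmp25 -0.68 to 0.21, Adamts1 -0.16 to 0.09, Adamts10 -0.12 to 0.20, Reck -0.33 to 0.38 and Tspan14 -0.02 to 0.08. Timp4, scarce in microglia, turned from 0.95 there to -2.78 over all cells (edgeR adjusted p = 0.0151), which include the cells outside microglial clusters. The causes of the other changes were not tested. The share of microglia with a UMI of Mmp12 kept its direction with cells thinned to 2000 UMIs.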
